A study of Mus musculus with 8 samples.

Results

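Chemokine and cytokine genes were examined in primary mouse glomerular mesangial cells (MMC) with and without miR-379. The 10 genes, Cx3cl1, Ccl2, Ccl7, Ccl5, Cxcl1, Cxcl5, Cxcl10, Cxcl12, Csf1 and Il6, were taken by symbol from the 24639 genes listed in the count files. MMC came from WT mice of strain C57BL/6J and from miR-379KO mice on the same strain, which were made by CRISPR-Cas9 nickase editing and carry a short homozygous deletion at miR-379. All cells were grown untreated in RPMI medium with foetal bovine serum, and the ages of the mice are not given in the labels. From each genotype, RNA was sequenced as total RNA, read from a stranded poly(A) library, and as AGO2-IP, the RNA recovered with anti-AGO2 beads after UV cross-linking. Each of the 4 groups held 2 libraries, A and B (8 in all). A and B are described by the study as independent, but the sources used here do not say whether they came from separate mice or cultures, so the spread between them may be technical.

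Mesangial cells are the contractile, pericyte-like cells that hold the capillary loops of the glomerulus together. When stimulated by cytokines, immune complexes or high glucose they secrete chemokines, which draw monocytes, neutrophils and T cells into the glomerulus. AGO2 belongs to the Argonaute proteins, which hold microRNAs and bind mRNAs through them, usually at sites in the 3′ untranslated region (UTR) that pair with the seed, the bases near the 5′ end of the microRNA.

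The mature miR-379-5p and the stretches of member 3′ UTRs that match part of its seed are shown because the groups differ by this microRNA. In the first line capitals mark the seed, bases 2 to 8 (GRCm38.p6, chr12:109709065-109709085, plus strand). In the other lines capitals mark TCTACC, the 6-base match to bases 2 to 7, in the 3′ UTR of Cx3cl1 (chr8:94781968-94781991, plus strand), Cxcl12 (chr6:117181042-117181065, plus strand) and Csf1 (chr3:107741364-107741387, minus strand).
miR-379-5p: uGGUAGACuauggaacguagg
Cx3cl1: cggggggggggggcattTCTACCc
Cxcl12: aattcccccagcagactTCTACCc
Csf1: aacaaaacaaggcattcTCTACCc
The longer match GTCTACC, to bases 2 to 8, occurred in none of the 10 members and in 4.055% of 19135 annotated 3′ UTRs, and TCTACC occurred in 21.061% of them. The members with TCTACC also had the longest 3′ UTRs, of 1871, 5189 and 2111 bases, whereas the other 7 had at most 1112 bases. A match is a description of letters and not a measured site.

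In total RNA, the growth and homing factors were the most abundant members and the inflammatory chemokines the least. Levels are compared between genes as counts per kb of exon, scaled to 1000000 gene counts outside Rn45s and Lars2, and are called level per kb. Those highly counted genes took most AGO2-IP counts, and the same scaling without the length is given as CPM, for comparing libraries. Cxcl12, the ligand of Cxcr4 that retains and attracts stem cells and lymphocytes, had levels per kb of 109 and 15.0 in WT, against 52.7 and 65.9 in miR-379KO (A and B). Csf1, the growth factor of macrophages, had levels per kb of 49.97 and 64.5 in WT, against 68.2 and 49.5 in miR-379KO. Cx3cl1 (fractalkine), a chemokine made on a membrane-anchored stalk and cut off by proteases, had 18.3 and 8.53 in WT, against 11.6 and 10.4 in miR-379KO. In WT, Csf1 and Cxcl12 lay above 95.1% and 95.5% of 23448 genes, and Cx3cl1 above 80.2%.

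The monocyte attractants came next. Ccl2, the main ligand of Ccr2, had levels per kb in total RNA of 6.31 and 6.81 in WT, against 6.98 and 5.43 in miR-379KO. Ccl7, which lies beside Ccl2 on chromosome 11 and shares its receptor, had 6.27 and 5.65 in WT, against 5.62 and 6.07 in miR-379KO. Cxcl10, an interferon-induced ligand of Cxcr3, had 1.17 and 1.04 in WT, against 0.936 and 0.827 in miR-379KO. All 4 libraries held these 3 genes at like levels, with replicates at most 1.29-fold apart.

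The neutrophil attractants, Ccl5 and Il6 were near the limit of detection in these untreated cells. Cxcl1, a ligand of Cxcr2, had 5 and 16 counts in WT, against 60 and 11 in miR-379KO total RNA. Il6, the acute-phase cytokine, had 6 and 12 counts in WT, against 4 and 7 in miR-379KO, and Ccl5, a T cell and monocyte attractant, had 1 and 5 in WT, against 9 and 1 in miR-379KO. Cxcl5, the other Cxcr2 ligand, had 0 counts in all 4 libraries, which allows up to 3 counts each, or 0.141 to 0.193 CPM (counting error only). Only miR-379KO A stood out, with more Cxcl1 than the other libraries.

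**Figure D1:**
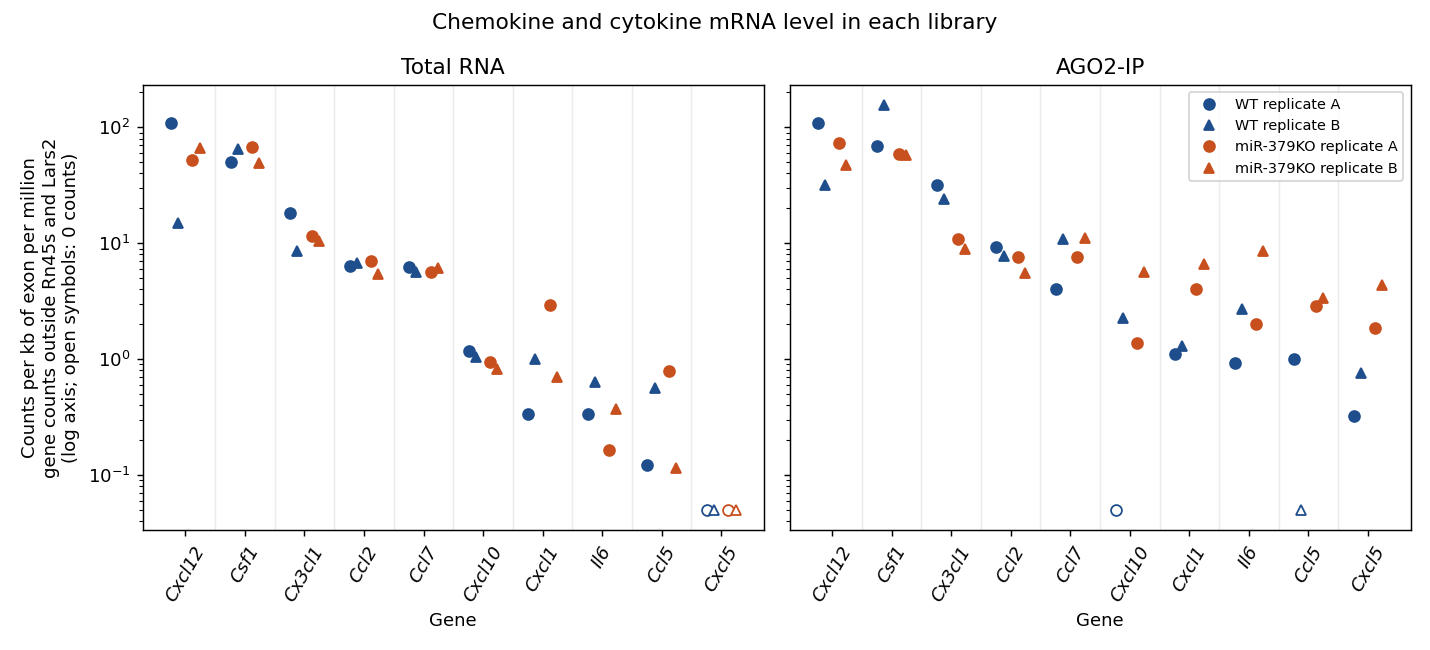
Level of each of the 10 genes in each library, in counts per kb of exon (CPM per kb, without Rn45s and Lars2) on a log axis, for total RNA (left) and AGO2-IP (right), with WT in blue, miR-379KO in orange and replicates A and B as circles and triangles. Cxcl12, Csf1 and Cx3cl1 have the highest group means in both assays, and in total RNA Cxcl5 has 0 counts in every library.

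In WT total RNA the order per kb was Cxcl12, Csf1, Cx3cl1, Ccl2, Ccl7, Cxcl10, Cxcl1, Il6, Ccl5 and Cxcl5. The replicate ranges of Cxcl12 and Csf1 overlapped, as did those of Cxcl1 and Il6 and of Il6 and Ccl5. The other neighbours were apart, by 4.26-fold between Csf1 and Cx3cl1, 2.05-fold between Cx3cl1 and Ccl2, and 5.39-fold between Ccl7 and Cxcl10. The order of Ccl2 over Ccl7 (1.10-fold) and of Cxcl10 over Cxcl1 (1.64-fold) did not hold in miR-379KO, where these ranges overlapped. In AGO2-IP the mean level per kb of Cx3cl1 was 27.9 ± 5.60 (SD, n = 2) in WT and lay 3.29-fold above Ccl2, without overlap. In miR-379KO AGO2-IP it was 9.89 ± 1.49 and overlapped that of Ccl7, at 9.41 ± 2.51.

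The libraries as a whole bear on every value below. Total RNA libraries held 17168230 to 22660743 gene counts and AGO2-IP libraries 5587611 to 17095021, of which Rn45s and Lars2 took 80.0% to 89.0%, leaving 1115782 to 1875037. Of the reads counted in genes, outside genes or as ambiguous between genes, 46.6% and 49.7% lay outside genes in WT AGO2-IP. In miR-379KO AGO2-IP 73.4% and 76.4% did. The 4801 autosomal protein-coding genes without counts in total RNA, here called silent genes, had 1.404 and 0.9445 counts per kb of exon in WT AGO2-IP and 3.187 and 3.631 in miR-379KO AGO2-IP. The gene of miR-379 had 0 counts in all 4 total RNA libraries and 0, 4, 1 and 0 in AGO2-IP (WT A and B, miR-379KO A and B), too few to check the genotype labels. Of the mesangial markers, Acta2, Tagln and Pdgfrb were abundant in total RNA (1913 counts or more), whereas Thy1 had 0 to 3 counts and Pdgfra 4 to 6.

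Markers of other glomerular cells were also counted, since leukocytes and podocytes can carry chemokine mRNA. The 12 macrophage markers summed to 1.94 to 6.81 CPM in total RNA, and 1 to 8 of them had 0 counts in a library. Ptprc had 3 to 7 counts and Cd68 6 to 17, whereas Lyz2 had 0 and 17 in WT, against 44 and 0 in miR-379KO (A and B). In AGO2-IP the same markers summed to 44.8 and 36.1 in WT, against 123 and 169 in miR-379KO. The rise was not particular to macrophage markers. Endothelial sums rose there from 45.9 and 19.9 CPM (WT) to 71.9 and 83.3 (miR-379KO), and tubular sums from 156 and 118 to 206 and 235. Podocyte sums overlapped (389 and 135, then 381 and 218), and mesangial sums, given below, were lower. Silent genes also had more counts in those miR-379KO libraries, and their part in these sums was not tested. The 8 endothelial markers summed to 8.44 to 19.8 CPM in total RNA and the 7 podocyte markers to 272 to 686. The podocyte sum was the higher in replicate A of both genotypes. Of these markers Synpo had 3561 to 10980 counts, Wt1 527 to 1566 and Podxl 301 to 575. Nphs1, which codes for nephrin of the slit diaphragm, had 0 to 4. The 9 tubular markers summed to 127 to 173, with Pax8 at 1335 to 2085 counts and Cdh1 at 3 to 14. Others of them differed widely between replicates. Cdh16 had 9 and 368 counts in WT total RNA, against 304 and 21 in miR-379KO (A and B). Lrp2 had 24 and 472 in WT, against 298 and 127 in miR-379KO, and Aqp1 had 66 and 100, against 71 and 611. In bulk RNA, fewer cells of a type and less RNA per cell cannot be told apart.

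The first comparison asked whether loss of miR-379 changed chemokine mRNA in total RNA. None of the 7 members tested was called, and Ccl5, Cxcl5 and Il6 had too few counts for a test. Of the 7 with enough counts to be tested, 0 passed an adjusted p of 0.05 (edgeR quasi-likelihood test, Benjamini-Hochberg over all genes), against 0 of 12321 genes (0%). By the cutoff the study used, 1.5-fold with an unadjusted p under 0.05, 0 of the 7 passed, against 84 genes (0.682%). DESeq2 called 0 members as well, and the lowest unadjusted p among the members was 0.137 (edgeR). Over all 12321 genes, 91 had an unadjusted edgeR p under 0.05, fewer than the 5% that chance alone would give. The test was thus strict on these libraries, and the lack of calls does not show equal levels.

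Cxcl1 had the largest difference in total RNA, with a log2 fold change of 1.47 ± 0.866 (SE, 95% confidence interval -0.633 to 3.57, edgeR adjusted p = 1). Its groups overlapped, and without miR-379KO total RNA replicate A, the library with 60 counts, the log2 fold change was 0.15 ± 1.17. Cxcl10 was at 1.29 and 1.15 CPM in WT, against 1.03 and 0.911 in miR-379KO, with a log2 fold change of -0.28 ± 0.515 (edgeR adjusted p = 1).

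The monocyte attractants and Csf1 gave the narrowest intervals in total RNA. The log2 fold change of Ccl2 was -0.035 (95% confidence interval -0.821 to 0.75) and that of Ccl7 was 0.018 (-0.778 to 0.814). Csf1 had 3430 and 4728 counts in WT, against 6440 and 3603 in miR-379KO, a log2 fold change of 0.086 (-0.537 to 0.708). These intervals include a change of 1.5-fold in either direction for Ccl2, Ccl7 and, upward, for Csf1.

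Cx3cl1 and Cxcl12 varied more between the WT replicates than between genotypes. Cx3cl1 had 894 and 445 counts in WT total RNA, against 781 and 539 in miR-379KO, a log2 fold change of -0.24 (95% confidence interval -1.16 to 0.673). Cxcl12 had 12137 and 1784 counts in WT, against 8052 and 7774 in miR-379KO, a log2 fold change of -0.026 (-2.19 to 2.13). The WT libraries differed 7.27-fold in Cxcl12 per kb, a wider gap than that of 99.4% of 10763 genes, and both miR-379KO libraries lay between them.

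Without WT total RNA replicate A, the log2 fold change of Cxcl12 became 2.05 ± 0.283 and that of Cx3cl1 0.43 ± 0.197, and neither passed (edgeR adjusted p = 1). The gap in Cxcl12 was seen again in AGO2-IP, with 1464 and 364 counts in WT A and B (3.44-fold per kb). Replicate A of WT was the higher in both assays, so the value depended on the library and the genotypes could not be ordered.

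**Figure D2:**
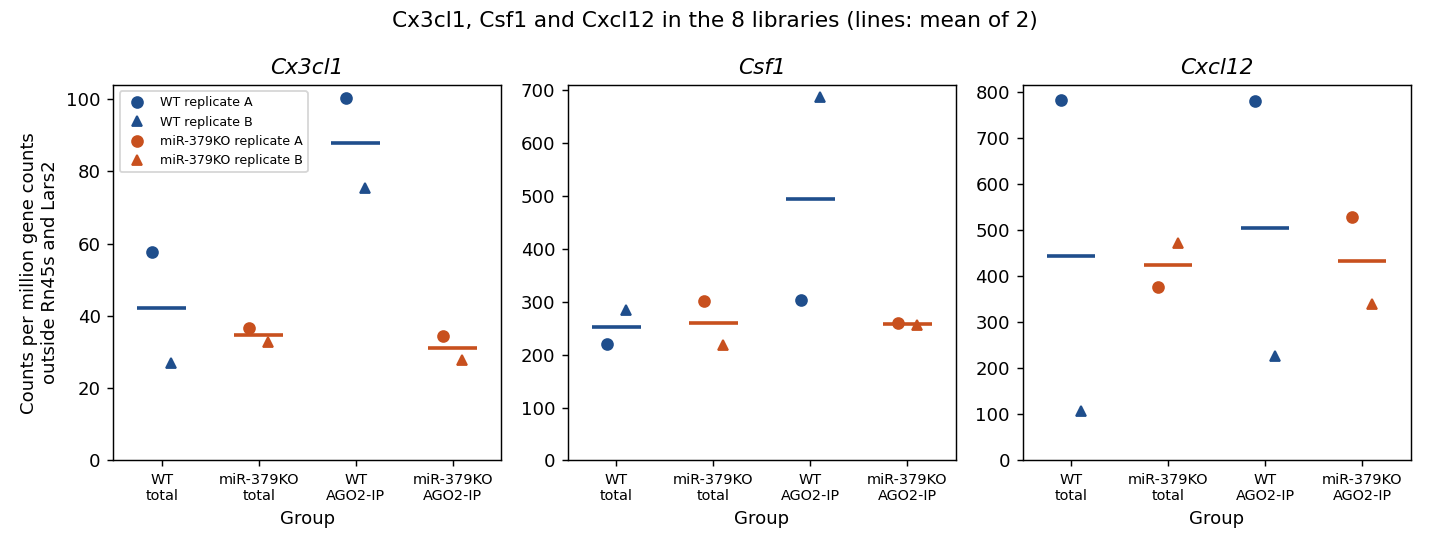
CPM (without Rn45s and Lars2) for Cx3cl1, Csf1 and Cxcl12 in the 8 libraries, with symbols for replicates A and B and a line at the mean of each group of 2. In AGO2-IP both miR-379KO libraries lie below both WT libraries for Cx3cl1 (34.4 and 27.8 against 100.3 and 75.4) and Csf1 (261 and 255 against 304 and 687), whereas the WT libraries of Cxcl12 lie on either side of miR-379KO in both assays.

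The second comparison asked the same of RNA recovered with AGO2. In miR-379KO, Cx3cl1 and Csf1 were lower in AGO2-IP, and none of the 4 members tested was called higher. The 4 with enough counts to be tested were Cx3cl1, Csf1, Cxcl12 and Ccl7, and 2 of these passed an adjusted p of 0.05. The background was high, with 4173 of 13505 genes called (30.9%), of which 1286 were lower (9.52%) and 2887 higher (21.4%). Here and below these shares are of the genes tested, and genes with too few AGO2-IP counts are not in them. The higher genes held 882 of the 998 tested genes with 0 counts in total RNA. DESeq2 gave an adjusted p for 4424 genes and called 86 higher and 1314 lower. With an offset for GC content and length the split was 1958 higher and 1610 lower.

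Cx3cl1 had 188 and 121 counts in the WT AGO2-IP libraries, and 45 and 31 in those of miR-379KO. Its log2 fold change was -1.81 ± 0.257 (SE, n = 2 per group), or 3.5-fold lower, with an edgeR adjusted p of 0.000121. Both miR-379KO libraries lay below both WT libraries, and 5 of the 13505 genes tested had a lower log2 fold change. The call held in each of the 14 other analyses with a test, with log2 fold changes from -2.10 to -1.56 and adjusted p from 6.82e-09 to 0.0222.

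Csf1 had 570 and 1103 counts in the WT AGO2-IP libraries, and 341 and 285 in those of miR-379KO. Its log2 fold change was -1.26 ± 0.325, or 2.40-fold lower (edgeR adjusted p = 0.00882), and 65 genes had a lower value. The groups did not overlap, but WT B held 2.26 times the level of WT A, a gap wider than that of 96.4% of genes. Without WT AGO2-IP replicate B the log2 fold change was -0.59 ± 0.334 and did not pass (adjusted p = 0.214).

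Level in total RNA moved with the direction of change in AGO2-IP over the genes tested. Of the genes with a mean of over 500 to 5000 counts in total RNA, which included Cx3cl1 and Csf1, 16.9% were called lower, with a median log2 fold change of -0.343. The median was 1.94 over the 998 genes with 0 counts in total RNA that had enough AGO2-IP counts to be tested. Such genes with too few AGO2-IP counts are left out, so this median does not describe all genes silent in total RNA. The part of this shift in the fall of Cx3cl1 and Csf1 was not tested.

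Cxcl12 and Ccl7 did not pass in AGO2-IP. Cxcl12 had 781 and 227 CPM in WT, against 528 and 340 in miR-379KO, with overlapping groups and a log2 fold change of -0.52 (95% confidence interval -2.06 to 1.02, edgeR adjusted p = 0.567). Its value turned on single libraries, being 0.56 ± 0.354 without WT AGO2-IP replicate A, -1.19 ± 0.367 without WT AGO2-IP replicate B (adjusted p = 0.0149) and -1.01 ± 0.346 without miR-379KO AGO2-IP replicate A (adjusted p = 0.0253). Ccl7 had 6 and 14 counts in WT, against 8 and 10 in miR-379KO, a log2 fold change of 0.046 (-1 to 1.1).

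**Figure D3:**
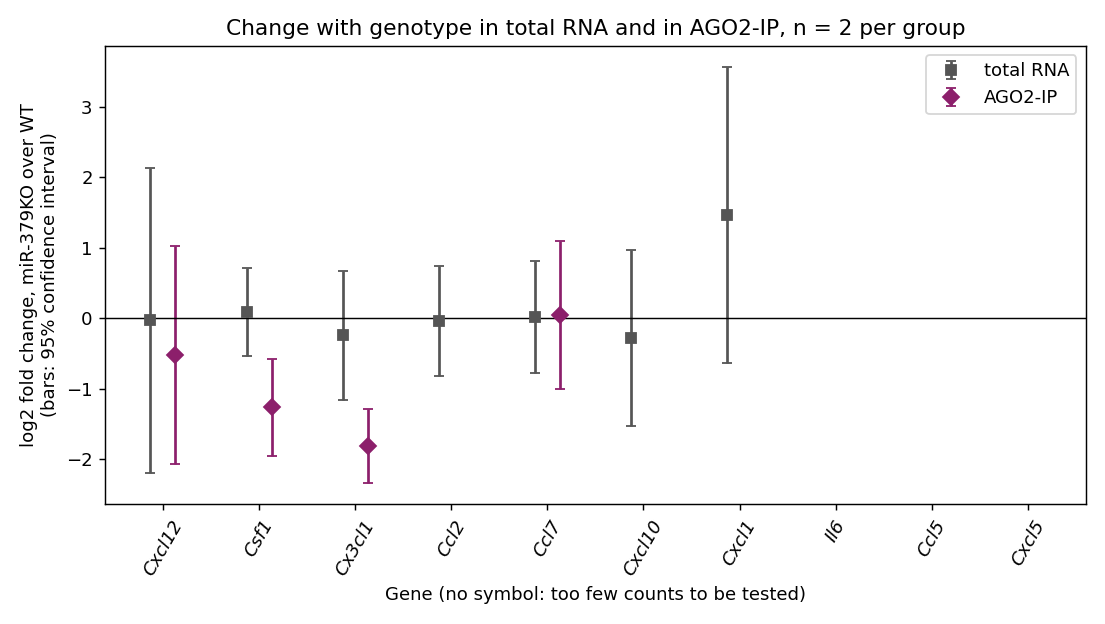
Log2 fold change of miR-379KO over WT with its 95% confidence interval for each gene tested in total RNA (squares) and AGO2-IP (diamonds), n = 2 per group. The intervals exclude 0 only for Csf1 (-1.95 to -0.574) and Cx3cl1 (-2.34 to -1.28) in AGO2-IP.

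The other 6 members had 14 counts or fewer in every AGO2-IP library. Ccl2 had 14 and 10 counts in WT, against 8 and 5 in miR-379KO. Il6 had 2 and 5 in WT, against 3 and 11 in miR-379KO, and Cxcl1 had 2 and 2 in WT, against 5 and 7 in miR-379KO. Cxcl5 had 1 and 2 against 4 and 8, Cxcl10 had 0 and 4 against 2 and 7, and Ccl5 had 1 and 0 against 2 and 2. With the filter on low counts lifted, none of these 6 passed (edgeR adjusted p from 0.124 to 0.447).

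These low counts were set beside those of a silent gene of the same length, which measures reads that reach the AGO2-IP libraries without an mRNA seen in total RNA. Ccl5, Cxcl1, Cxcl5, Cxcl10 and Il6 held 0 to 4.64 times the silent-gene count in every library. Cxcl5, which had no counts in total RNA, held 0.430 and 1.28 times in WT, against 0.758 and 1.33 times in miR-379KO. The higher counts of these genes in miR-379KO AGO2-IP stood beside a higher silent-gene count in the same libraries.

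Cx3cl1 held 42.6 and 40.7 times the silent-gene count in WT AGO2-IP and 4.49 and 2.72 times in miR-379KO AGO2-IP. Csf1 held 91.8 and 264 times in WT, against 24.2 and 17.7 times in miR-379KO. Cxcl12 likewise held 146 and 53.8 times in WT, against 30.3 and 14.6 times in miR-379KO, and Ccl2 held 12.4 and 13.1 times in WT, against 3.11 and 1.71 times in miR-379KO. Ccl7, whose log2 fold change in AGO2-IP was 0.046, held 5.34 and 18.5 times in WT, against 3.13 and 3.44 times in miR-379KO. In these 5 genes the ratio was lower in both miR-379KO libraries than in both WT libraries. Part of that gap is the silent-gene count itself, which was the higher in miR-379KO, so that a lower ratio alone does not show that less of the mRNA was recovered. Subtracting the silent-gene count gave mean CPM of 85.7 in WT and 22.1 in miR-379KO for Cx3cl1, and of 493 and 245 for Csf1 (log2 ratios -1.95 and -1.005, no test).

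**Figure D4:**
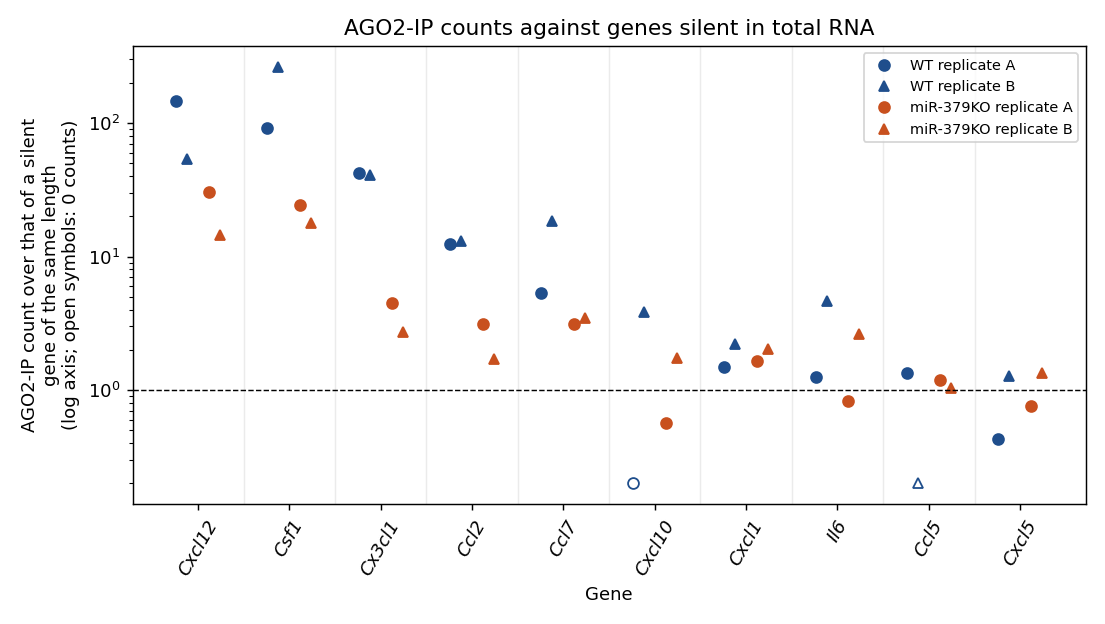
AGO2-IP count of each gene divided by the count of a silent gene of the same length in the same library, on a log axis, with the dashed line at 1. Cxcl12, Csf1 and Cx3cl1 lie between 2.72 and 264, and Cxcl5 lies between 0.430 and 1.33.

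Another comparison set the AGO2-IP change against the total RNA change, in a fit of all 8 libraries. Without a term for the letters no member passed, and 0 of 17429 genes did (0%), although 2733 genes had an unadjusted p under 0.05. The log2 difference was -1.81 ± 0.434 for Cx3cl1 (unadjusted p = 0.000628, edgeR adjusted p = 0.229) and -1.56 ± 0.5 for Csf1 (unadjusted p = 0.00669, adjusted p = 0.237). By the study's cutoff these 2 of the 9 members tested were lower, against 10.9% of genes. DESeq2 called 0 members and 211 genes.

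This result depended on how the letters were treated. A minus B differences in total RNA and in AGO2-IP were correlated across 4856 genes within WT (r = 0.33) and within miR-379KO (r = 0.26), genes not being independent replicates, which is a hint from the data that libraries of one letter and genotype belong together. With a letter term for each genotype, an alternative chosen after seeing the data, Cx3cl1 (-1.87 ± 0.344, edgeR adjusted p = 6.58e-05) and Csf1 (-1.45 ± 0.360, adjusted p = 0.00558) both passed. The same fit called 1108 genes (6.36%), of which 977 were lower (5.61%). With a single letter term for both genotypes Cx3cl1 passed (-1.88, adjusted p = 0.0347) and Csf1 did not (-1.54, adjusted p = 0.13).

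The Cx3cl1 difference passed without WT total RNA replicate A (-2.37, adjusted p = 0.00778) and without WT total RNA replicate B (-1.45, adjusted p = 0.0183). The RLE scaling moved the median over all genes from 0.0102 to 0.276, and Cx3cl1 was then at -1.53 and Csf1 at -1.30. For Csf1 the value without WT AGO2-IP replicate B was -0.56 (adjusted p = 0.748).

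Recovery in AGO2-IP relative to total RNA was then compared within each genotype. The assays differ in library protocol, so a value is relative to all other genes. In WT, Cx3cl1 was enriched by a log2 fold change of 1.27 ± 0.294 (edgeR adjusted p = 0.00186) and Csf1 by 1.14 ± 0.354 (adjusted p = 0.0129), where the median over all genes was 0.493. Of the 9 members tested, 3 were called higher, against 38.7% of genes, the other being Cxcl5, whose counts were those of a silent gene. Cx3cl1 did not pass without WT AGO2-IP replicate A (0.80, adjusted p = 0.129), and Csf1 did not pass without WT AGO2-IP replicate B (0.12, adjusted p = 0.789), without WT total RNA replicate A (0.85, adjusted p = 0.102), or without miR-379KO AGO2-IP replicate A or B (0.91 and 0.93, adjusted p = 0.0615 and 0.0607). With the block within each genotype Cxcl12 was called as well (0.71, adjusted p = 0.0172).

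In miR-379KO, Cx3cl1 was at -0.55 ± 0.321 (edgeR adjusted p = 0.14) and Csf1 at -0.41 ± 0.354 (adjusted p = 0.314), where the median over all genes was 0.475. Cx3cl1 was called lower without WT total RNA replicate A or B (adjusted p = 0.027 and 0.0284), and with the block within each genotype (-0.55, adjusted p = 0.046). The 2 members called higher, against 43.9% of genes, were Il6 (3.84 ± 0.824, adjusted p = 0.000437) and Cxcl5. Il6 had 3 and 11 counts in these AGO2-IP libraries, 0.825 and 2.65 times the silent-gene count, and did not pass without miR-379KO AGO2-IP replicate B (2.56, adjusted p = 0.112). The change of recovery between genotypes is the contrast given above, which passed for Cx3cl1 and Csf1 with the block within each genotype and not without a block.

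Genes that make, cut, receive or control these proteins were described by lists. In total RNA no gene of any list passed. Of the 14 receptors of the members, 5 were tested in total RNA, among them Il6st, the signalling chain of the Il6 receptor (6838.75 counts on average, log2 fold change -0.31 ± 0.230), and Ackr3, a scavenger of Cxcl12 (71.5 counts, -0.56 ± 0.357). In AGO2-IP, 4 of 9 receptors tested were higher and 0 lower, beside 21.4% and 9.52% of all genes. Ccr1, Ccr2 and Cxcr2 were among the 4 and were named after their values were seen. The minimum count for a test was scaled to library size. All 4 reached it through miR-379KO, where they were high, so their calls are no count of the list. Ccr2, the receptor of Ccl2 and Ccl7, had 0 counts in all total RNA libraries, and 5 and 2 in WT, against 17 and 20 in miR-379KO AGO2-IP, through which it reached the minimum count.

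Of 26 other chemokine ligands, 5 were tested in total RNA, with a median of -0.127, and the most counted were Cxcl16 (87.75 counts on average, log2 fold change -0.13 ± 0.536) and Ccl17 (55.25 counts, 0.36 ± 0.654). In AGO2-IP only 3 of the 26 reached the minimum count. Ccl28 (6 and 8 counts in WT, 15 and 15 in miR-379KO) and Cxcl9 (2 and 7 against 15 and 14), named after their values were seen, reached it through miR-379KO, where they were high, so their calls are no count of the list. Of 33 other cytokines, 12 were tested in AGO2-IP, and 6 were higher and 2 lower, beside 21.4% and 9.52% of all genes. The 6 higher, named after their values were seen, were Il1a, Il7, Il16, Il33, Kitl and Tnfsf10. They had 17 counts or fewer in each WT library and 9 to 35 in miR-379KO. All 6 reached the minimum count through miR-379KO, where they were high, so their calls are no count of the list. The 2 lower were Mif, a macrophage migration inhibitor (74 and 86 counts in WT, 44 and 35 in miR-379KO, log2 fold change -0.83 ± 0.268, edgeR adjusted p = 0.0224), and Clcf1, of the Il6 family (145 and 142 counts against 94 and 72, -0.59 ± 0.227, adjusted p = 0.0495). In total RNA Il1b had 0 counts in every library.

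Of 6 proteases that cut the members, 5 were tested in AGO2-IP. Mmp14, a membrane-bound metalloprotease, was lower, with 1707 and 1811 counts in WT, against 869 and 579 in miR-379KO (log2 fold change -1.10 ± 0.285, edgeR adjusted p = 0.00625). Mmp2, a gelatinase, was lower as well, with 2716 and 1477 counts against 1120 and 653 (-1.02 ± 0.307, adjusted p = 0.0149). Dpp4, which trims the ends of Cxcl12 and Cxcl10, was higher at 14 and 14 against 41 and 43 counts, and was named after its values were seen. It reached the minimum count through miR-379KO, where it was high.

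All 20 receptors and adaptors that induce chemokines had enough counts to be tested in total RNA. In AGO2-IP, 4 of 19 were lower and 0 higher, with a median of -0.17, beside 9.52% and 21.4% of all genes. Ifngr1, a chain of the interferon gamma receptor, had 168 and 160 counts in WT, against 93 and 63 in miR-379KO (log2 fold change -0.88 ± 0.232, edgeR adjusted p = 0.00705). Tnfrsf1a, the main TNF receptor, had 205 and 166 against 113 and 68 (-0.84 ± 0.235, adjusted p = 0.0103), and Tnfrsf1b had 107 and 70 against 49 and 37 (-0.83 ± 0.260, adjusted p = 0.0191). The fourth was Ifngr2.

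Of 22 NF-kappaB factors and inhibitors, 21 were tested in AGO2-IP, and 4 were lower and 0 higher, beside 9.52% and 21.4% of all genes, with a median of -0.609. Nfkbiz, a nuclear co-regulator of Il6, had 173 and 126 counts in WT, against 76 and 71 in miR-379KO (log2 fold change -0.81 ± 0.227, edgeR adjusted p = 0.0101). Tnip1 (-0.75 ± 0.266, adjusted p = 0.0344) and Nfkb2 (-0.71 ± 0.233, adjusted p = 0.0237) were lower as well, and the fourth was Tnfaip3, an inhibitor of the pathway. Among 12 factors that act on cytokine mRNA decay, 1 was lower in AGO2-IP, Zfp36, which binds AU-rich elements (71 and 63 counts against 29 and 30, named after its values were seen). In total RNA the most counted of these were Cnot1 (-0.046 ± 0.228) and Khsrp (-0.15 ± 0.199). The AGO2-IP changes of these lists stand beside the shift with total RNA level given above, whose part in them was not tested.

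Of 15 other NF-kappaB target genes, 11 were tested in AGO2-IP, with 3 higher and 3 lower, beside 21.4% and 9.52% of all genes. Ptgs2, the inducible cyclooxygenase, had 607 and 1173 counts in WT, against 425 and 431 in miR-379KO (log2 fold change -0.89 ± 0.322, edgeR adjusted p = 0.0433), and its groups overlapped once scaled. The other 2 lower were Ier3 and Gadd45b. The 3 higher were Nos2, Mmp3 and Mmp13, all with 20 counts or fewer in every AGO2-IP library. These 3 reached the minimum count through miR-379KO, where they were high, so their calls are no count of the list.

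Mesangial markers also moved in AGO2-IP, with 4 of 10 tested lower and 2 higher, beside 9.52% and 21.4% of all genes. Cspg4 (NG2), a pericyte proteoglycan, had 725 and 556 counts in WT, against 235 and 182 in miR-379KO (log2 fold change -1.41 ± 0.246, edgeR adjusted p = 0.000461). Mcam (-1.11 ± 0.233, adjusted p = 0.00163) and Pdgfrb (-0.94 ± 0.258, adjusted p = 0.0088) were lower too. The 2 higher, named after their values were seen, were Itga8 (16 and 16 counts in WT, 32 and 36 in miR-379KO) and Pdgfra (13 and 9 against 15 and 30). Both reached the minimum count through miR-379KO, where they were high. The summed mesangial markers in AGO2-IP were 5500 and 6750 CPM in WT, against 5120 and 3450 in miR-379KO.

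The genes whose profile over the 8 libraries was most like that of a member were named among 4856 genes with a mean of 50 counts in each assay, by the root mean square difference of centred log2 CPM. For Cx3cl1 these were Agrn (0.235) and Pdzrn3 (0.29), and for Csf1 Map1a (0.168) and Por (0.238). For Cxcl12 they were Bgn (0.321) and Rapgef3 (0.416). The other members had too few counts.

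Further sequence features of the members were read from the same genome build. Cytokine mRNAs often carry AU-rich elements, at which decay factors bind. The nonamer TTATTTATT was found in 6.533% of 3′ UTRs and in Cx3cl1 (chr8:94780850-94780878) and, at 2 places, in Cxcl1 (chr5:90892615-90892643 and chr5:90892908-90892936), all on the plus strand, with capitals marking it.
Cx3cl1: cagtgaacaaTTATTTATTggattcccag
Cxcl1, first: atttatgtatTTATTTATTccacaaagtg
Cxcl1, next: agaatgtcagTTATTTATTgaaagtcgtc
The pentamer ATTTA, which each nonamer contains, was found in 61.714% of 3′ UTRs and in 9 of the 10 members, Ccl5 being without it.

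Promoter windows, 250 bases before to 50 after the start, were matched in RefSeq (GRCm38.p6) for 6 members. The NF-kappaB consensus was searched by name on both strands and was found in 4.51% of 32851 windows, and in Cxcl1, Cxcl10, Csf1 and Il6 but not in the windows of Cx3cl1 and Cxcl12. A stretch around 1 match of each is shown with the match in capitals, for Cxcl1 (chr5:90891164-90891193, plus strand, where 2 matches overlap), Cxcl10 (chr5:92349029-92349058, minus strand), Csf1 (chr3:107760604-107760633, minus strand) and Il6 (chr5:30013060-30013089, plus strand).
Cxcl1: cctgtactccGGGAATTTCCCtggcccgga
Cxcl10: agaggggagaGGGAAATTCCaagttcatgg
Csf1: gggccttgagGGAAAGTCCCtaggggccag
Il6: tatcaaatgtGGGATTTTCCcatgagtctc
The genes with a match spanned the range of total RNA levels, from Csf1 down to Il6.

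On the opposite strand, Csf1 overlaps Gm40121, Cx3cl1 overlaps Gm51543, Cxcl10 overlaps Art3, Il6 overlaps A230098N10Rik and Ccl5 overlaps Gm32650. No member overlaps another gene on its own strand. Counting was specific for the strand, so reads of these partners were kept apart to the extent that the libraries preserved it.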

How the data were processed

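The authors deposited gene counts as whole reads per library, without normalization. Per their methods, reads were aligned to mm10 with TopHat and counted on UCSC RefSeq genes with htseq-count in reverse-stranded mode; the submitters' processing notes name Bowtie2 2.1.0.1 and HTSeq 0.6.0. A stranded poly(A) kit was used for total RNA. For AGO2-IP, cells were UV cross-linked and sonicated, and the recovered RNA was sequenced without the step that ligates microRNA to target. The methods call this small RNA-seq; the library steps they spell out, without size selection, are those of the ligated samples, and whether they hold for AGO2-IP is not given in the sources used here.

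Genes were tested with edgeR 4.0.16 in R 4.3.3 (quasi-likelihood, robust, TMM factors, filterByExpr with a minimum count of 10), in the 4 libraries of an assay for the genotypes and in all 8 for contrasts between assays. A gene was called at a Benjamini-Hochberg adjusted p under 0.05 over all genes tested. DESeq2 1.42.0 was an alternative. Exon lengths and 3′ UTRs came from RefSeq GRCm38.p6, in which 98.7% of listed genes were matched. The tests were tried on simulated counts first.

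The members, the lists and the tests were chosen with earlier results of these data known. All 10 members are named. From each list up to 3 genes past the threshold with the largest change and a mean of at least 50 counts are named, or, where none passed, up to 2 with the highest mean. Between genotypes the letters A and B did not pair the libraries (correlation of deviations -0.11 in total RNA and 0.036 in AGO2-IP). Between the assays of one genotype they correlated (0.33 in WT and 0.26 in miR-379KO), and a fit with a letter term in each genotype was added. Values of some listed genes are not reported here.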

Additional observations from a re-analysis of the deposited data

How the results depend on the processing

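Over the 5 comparisons, 62 counts of members called stayed within 1.5 times the value reported and 13 did not. In the contrast of the AGO2-IP and total RNA changes, 2 members were called with the study's cutoff, 2 with the replicate block within each genotype (added after seeing the data) and 1 with the replicate block (Cx3cl1, log2 difference -1.88, edgeR adjusted p = 0.0347), and leaving out 1 library gave 0 to 1. Leaving out 1 library gave 1 to 4 members for AGO2-IP against total RNA in WT and 0 to 3 in miR-379KO. The replicate block, which treats libraries of one letter as paired, changed no other call of a member. The block within genotype, which pairs only the assays, turned Cxcl10 in WT (AGO2-IP against total RNA) to -0.013. A crossed block (WT A with miR-379KO B), chosen after seeing the data because of the correlation of -0.11, called 1 gene in total RNA and no further member.

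Directions that turned belonged to values that had not passed. In total RNA, Cxcl12 was at 0.58 with the replicate block, 0.11 with all 8 libraries in one fit and 0.59 with the crossed block, and Ccl2 was at 0.029 with all 8 libraries. In AGO2-IP, Ccl7 was at -0.28 with DESeq2, -0.17 without the filter, -0.12 with all 8 libraries, -0.23 with the GC and length offset, -0.19 with that offset and the replicate block, and -0.044 after subtracting the silent-gene count. In the contrast of changes Ccl7 was at 0.047 with DESeq2 and 0.050 with RLE factors. The cause was not tested.

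Leaving out 1 library gave, in total RNA, -0.84 to 2.05 for Cxcl12, -0.70 to 0.43 for Cx3cl1, -0.11 to 0.28 for Csf1, -0.17 to 0.11 for Ccl2 and -0.070 to 0.13 for Ccl7. In AGO2-IP it gave -1.19 to 0.56 for Cxcl12 and -0.62 to 0.85 for Ccl7. In the contrast of changes it gave -2.68 to 0.61 for Cxcl12, -0.58 to 0.95 for Ccl7 and -1.003 to 1.49 for Cxcl1. For AGO2-IP against total RNA in WT it gave -0.999 to 2.27 for Cxcl12, -0.72 to 0.83 for Ccl7 and -0.11 to 0.99 for Cxcl10, which had 0 counts left without WT AGO2-IP replicate B and so no value. A lone library was assumed to vary like the other groups.

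Over all genes, the counts called that moved by over 1.5 times were as follows. In AGO2-IP, 4173 of 13505 genes became 1400 of 4424 with DESeq2 (86 higher, 1314 lower). DESeq2 gave an adjusted p for fewer genes, so the counts do not compare as shares. With all 8 libraries in one fit 686 of 17429 were called. The count also moved without WT AGO2-IP replicate B and without miR-379KO AGO2-IP replicate B, fits that leave 1 library in a group. In the contrast of changes, 0 became 2733 with the study's cutoff, 211 with DESeq2, 8 with the replicate block, 1108 with the block within genotype (131 higher, 977 lower), 1 with the crossed block, and 28, 1547 and 1 without WT total RNA replicate A, WT total RNA replicate B and miR-379KO total RNA replicate B. For AGO2-IP against total RNA in WT, 8987 became 5655 without WT AGO2-IP replicate A. In total RNA, 0 became 84 with the study's cutoff.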
